A study of Mus musculus with 6 samples.

Results

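The 10 genes described here encode gluconeogenic enzymes (Pcx, Pck1, Fbp1, G6pc and the transporter Slc37a4), 2 regulators of their transcription (Ppargc1a and Foxo1) and the first steps of insulin signalling (Insr, Irs1 and Irs2). They were chosen by name, and every probe set that the platform annotation gives to 1 of these symbols alone was read, which made 25 probe sets for 10 of the 18193 genes with a probe set of their own. The livers came from 3 Keap1 conditional knockout mice, Alb-Cre::Keap1(flox/-), and 3 genetic controls, Alb-Cre:Keap1(flox/+). All 6 mice were males of 9 weeks, carried Cre driven by the albumin promoter, which is active in hepatocytes, with a floxed Keap1 allele, and had been given vehicle alone (10% DMSO, 10% Cremophor-EL and 80% PBS). The second Keap1 allele was null in the knockouts and wild type in the controls. Total liver RNA was hybridised to 1 single-colour Affymetrix array per mouse, and the deposited values are linear signals scaled to the same trimmed mean. Mice are named by group and the number in their label, which is 3, 4 and 5 for the knockouts and 1, 2 and 3 for the controls. The sources used here do not give whether the mice were fed or fasted, nor the hour at which the livers were taken.

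In the fasted liver, pyruvate carboxylase (Pcx) turns pyruvate into oxaloacetate, and phosphoenolpyruvate carboxykinase (Pck1) turns that into phosphoenolpyruvate. Fructose-1,6-bisphosphatase (Fbp1) and glucose-6-phosphatase (G6pc) carry out the later bypasses of glycolysis, with G6pc acting on glucose 6-phosphate that Slc37a4 brings into the endoplasmic reticulum. Glucagon, acting through cAMP and CREB, raises transcription of Pck1, G6pc and the coactivator PGC-1α (Ppargc1a). Insulin acts through its receptor (Insr) and the docking proteins IRS1 and IRS2 on the kinase AKT, which sends the transcription factor FOXO1 out of the nucleus and so lowers Pck1 and G6pc transcription. KEAP1 is the adaptor that directs the transcription factor NRF2 to degradation, and its loss raises NRF2 activity.

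The promoters of Pck1, G6pc and Ppargc1a are shown because they belong to the genes with the largest log2 differences among the tested probe sets described below. Of the 10 genes, 9 (all but Insr) had an entry in the RefSeq promoter table (build GRCm38.p6), each 300 bases long from 250 before to 50 after the start. Capitals mark matches on either strand to TGACG, one arm of the cAMP response element, or to TGACNNNGC, the core of the antioxidant response element bound by NRF2. The Pck1 promoter lies at chr2:173152823-173153122 on the plus strand, that of G6pc at chr11:101367466-101367765 on the plus strand and that of Ppargc1a at chr5:51567676-51567975 on the minus strand.
Pck1: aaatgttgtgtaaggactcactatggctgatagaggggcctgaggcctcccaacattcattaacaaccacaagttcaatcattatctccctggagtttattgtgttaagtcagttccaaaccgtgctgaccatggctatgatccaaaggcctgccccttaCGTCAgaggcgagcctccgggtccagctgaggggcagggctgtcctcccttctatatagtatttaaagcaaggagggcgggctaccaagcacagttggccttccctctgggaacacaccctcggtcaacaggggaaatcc
G6pc: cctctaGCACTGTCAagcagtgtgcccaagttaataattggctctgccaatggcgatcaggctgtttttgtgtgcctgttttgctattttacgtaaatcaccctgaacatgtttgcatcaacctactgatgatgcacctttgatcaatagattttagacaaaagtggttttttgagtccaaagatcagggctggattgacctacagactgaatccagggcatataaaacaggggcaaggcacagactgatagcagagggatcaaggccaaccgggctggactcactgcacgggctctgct
Ppargc1a: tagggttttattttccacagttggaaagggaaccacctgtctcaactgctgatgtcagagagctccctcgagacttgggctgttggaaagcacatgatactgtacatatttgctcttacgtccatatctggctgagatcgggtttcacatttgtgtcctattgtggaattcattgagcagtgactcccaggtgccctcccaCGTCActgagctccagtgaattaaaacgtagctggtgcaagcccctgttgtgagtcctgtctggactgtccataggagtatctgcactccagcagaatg
The TGACG arm, read on the minus strand as CGTCA, began 90 bases before the start in Pck1 and 49 before it in Ppargc1a. The G6pc window held the antioxidant response element core on the minus strand, GCACTGTCA, beginning 244 bases before the start. Among the other 6 genes, TGACG matched in 2 of the 3 Slc37a4 promoters and in that of Irs1, and TGACNNNGC matched in those of Fbp1, Irs1 (overlapping its TGACG match) and Irs2. No promoter of Pcx or Foxo1 held a match. Neither the whole cAMP response element TGACGTCA, which contains TGACG, nor the forkhead sequence GTAAACA was found in any of the 12 promoters of these genes. Over all 32851 promoters of the table, TGACG was present in 20.8%, TGACNNNGC in 12.4%, GTAAACA in 3.65% and TGACGTCA in 1.79%. Only these sequences were searched, so variants of them were not looked for. A match is a string of letters and was not tested for binding.

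The labels were first checked on Keap1, on Nfe2l2 (the gene of NRF2) and on Nqo1, a quinone reductase and textbook NRF2 target. Keap1 stood at 29.7% of control in the brighter of its probe sets (log2 difference -1.74, SE 0.24, limma adjusted p = 0.0102), and Nqo1 was 4.96-fold higher (limma adjusted p = 0.000161). The weaker Keap1 probe set stood at 62.5% (limma adjusted p = 0.222), and which of them lies in the deleted part was not examined. Nfe2l2 was lower, at 63.3% of control in its brighter probe set (log2 difference -0.66, limma adjusted p = 0.0352). Its weaker probe set stood at 87.2% (limma adjusted p = 0.716). The cause of that fall was not tested. Hepatocyte markers, with 10 of 10 tested, were at high signals on every array except for Ass1, which read 531 to 1647. Their summed signal was 229445 to 257460 in the knockouts and 201533 to 228589 in the controls, ranges that did not overlap, and 8 of 10 lay above the controls by their mean log2 difference. Kupffer cell markers summed to 8528 to 11542 in the knockouts and 5819 to 10174 in the controls. Of these, 2 had an unadjusted p under 0.05 (limma), Marco and Cd5l, both higher. Only Marco did not overlap, at 550 ± 198 in the knockouts and 207 ± 101 in the controls (limma adjusted p = 0.120). Lymphocyte markers summed to 533.5 to 636.5 in the knockouts and 496.6 to 582.1 in the controls. Stellate cell markers summed to 5037 to 5450 in the knockouts and 5363 to 5599 in the controls. Cholangiocyte markers, of which 4 of 5 were tested and all 4 lay below the controls, summed to 258 to 528 in the knockouts and 313 to 1318 in the controls, with the highest value in control 2. Adipocyte markers, of which 2 of 4 were tested and both lay above the controls, summed to 816 to 949 in the knockouts and 711 to 759 in the controls. Fabp4 alone gave most of each sum, at 426 to 720 over the 6 mice, and Retn most of the rest. Adipoq and Lep fell under the filter. Knockout means were 28.4 for Adipoq and 17.1 for Lep, against control means of 35.7 and 14.4. Read singly, each of the 4 adipocyte markers overlapped between the groups. Endothelial markers summed to 5469 to 5834 in the knockouts and 5330 to 5417 in the controls, but only 2 of 6 lay above the controls. Without Lyve1 their sums overlapped, at 4440 to 5123 in the knockouts and 4748 to 5106 in the controls. Of the pancreas markers 3 of 4 on the array fell under the signal filter, as did 3 of 5 kidney markers and 3 of 6 skeletal muscle markers. No marker of the 10 cell type lists passed the test, and the part of cell make-up in the results below was not tested. In whole liver, fewer cells of a type and less RNA per cell cannot be told apart.

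Of the 25 probe sets, 17 passed a filter on low signal (a mean over the 6 arrays at or above the 40th percentile) and entered the test. They covered 9 of the 10 genes. The other 8 were 4 under the filter, which included the only Irs2 probe set, and 4 Pcx probe sets that Affymetrix placed among its hybridisation and quality controls. In a limma fit over all 27022 tested probe sets, 0 of the 17 were higher and 0 lower in the knockouts at an adjusted p under 0.05 (Benjamini-Hochberg). The same rule called 0.814% of all tested probe sets higher and 0.722% lower, which was 220 and 195 probe sets and became 134 and 428 after centring on the hybridisation controls. At an unadjusted p under 0.05 there were 2, 1 higher (Foxo1) and 1 lower (Ppargc1a), against 14.5% of all tested probe sets. The adjusted p of the 17 lay between 0.245 and 0.900. Groups that did not overlap were found for 1 probe set with higher knockout values and 3 with lower ones, where 9.1% and 11.4% of all tested probe sets did the same. The median difference of the 17 was -0.35 on the log2 scale, against -0.04 over all tested probe sets, but 5 of the 17 belonged to Ppargc1a. With 3 mice against 3, an exact permutation test of a single probe set cannot go below p = 0.1.

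**Figure D1:**
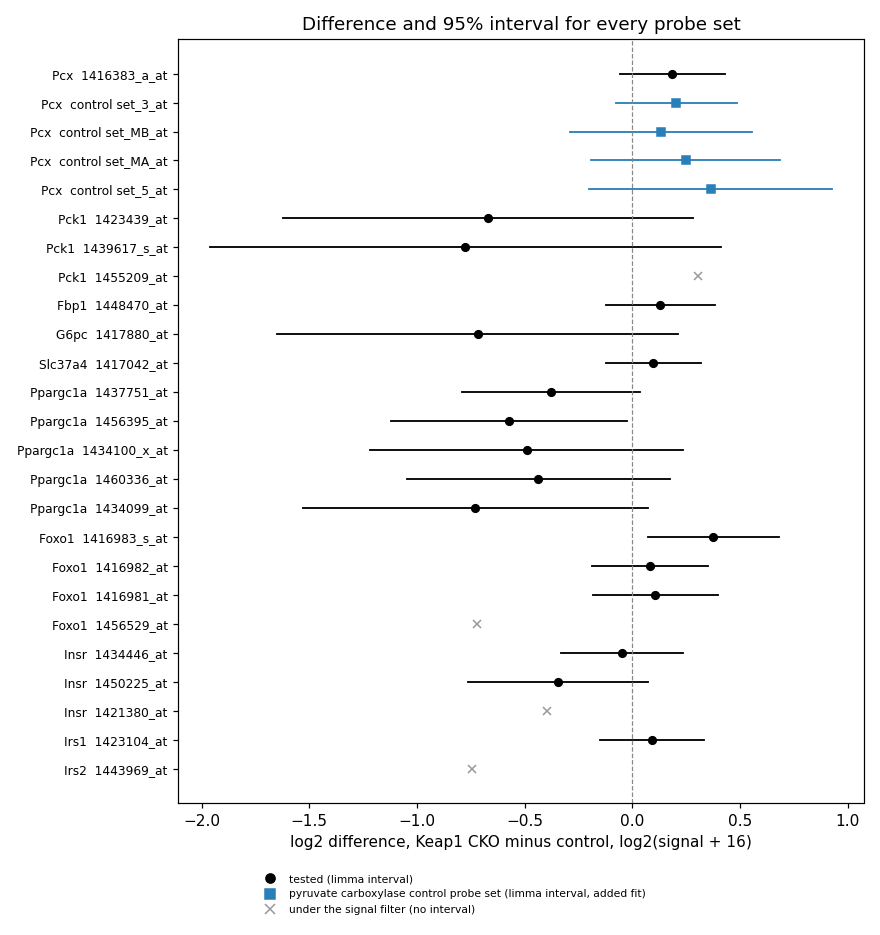
The log2 difference of each of the 25 probe sets (horizontal axis, Keap1 CKO minus control, on log2(signal + 16)), in rows grouped by gene, with its 95% limma interval where one was fitted; circles were tested, squares are Pcx control probe sets and crosses are probe sets under the filter. The widest intervals among the tested probe sets are those around the Pck1 and G6pc estimates (-0.67, -0.78 and -0.72). The narrow intervals of Slc37a4, Fbp1 and Irs1 include 0.

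Pck1 had lower mean signals in the knockouts, but the mice of each group differed widely. Probe set 1423439_at read 4163, 5426 and 12018 in knockouts 3, 4 and 5, against 18388, 8607 and 6970 in controls 1, 2 and 3. Knockout 5 lay above controls 2 and 3, so the groups overlapped. The means were 7203 ± 4218 in the knockouts and 11322 ± 6174 in the controls (mean ± SD of 3 mice each), or 63.6% of control. The log2 difference was -0.67 with a 95% interval of -1.62 to 0.28 (limma adjusted p = 0.508). Probe set 1439617_s_at ran through the mice in nearly the same way, at 1766, 2177 and 5198 in the knockouts and 10884, 3556 and 2607 in the controls, and differed by -0.78 (interval -1.96 to 0.41, limma adjusted p = 0.542). Control 1 was the highest mouse in both probe sets, and without it the differences were -0.26 and -0.16. Without knockout 5 they were -1.12 and -1.24. The third probe set, 1455209_at, stayed under the filter, with 56.9, 87.0 and 63.6 in the knockouts and 48.7, 40.9 and 69.8 in the controls.

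G6pc, measured by 1 probe set (1417880_at), showed the same size of difference with another order of mice. It read 7895, 16911 and 5036 in knockouts 3, 4 and 5, against 18865, 17568 and 9066 in controls 1, 2 and 3. Knockout 4 was close to the higher 2 controls, control 3 was close to knockout 3, and the groups overlapped. The means were 9947 ± 6198 in the knockouts and 15166 ± 5323 in the controls (mean ± SD of 3 mice each), or 65.6% of control, and the log2 difference was -0.72 (interval -1.65 to 0.21, limma adjusted p = 0.466). It was -1.19 without knockout 4 and -0.32 without knockout 5. Knockout 5 thus held the highest Pck1 and the lowest G6pc value of its group.

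Pck1 and G6pc varied more between mice of a group than nearly all probe sets of like signal. The within-group standard deviation was 0.77 on the log2 scale for Pck1 (1423439_at) and 0.75 for G6pc, against a median of 0.22 over all tested probe sets. Among the 696 tested probe sets whose mean signal was within 0.5 log2 units of that of Pck1, 0.575% had a larger standard deviation. For G6pc the share was 0.887% of 564. The standard deviations of the other enzymes were 0.10 for Slc37a4, 0.15 for Fbp1 and 0.13 for Pcx, and 70.0%, 14.7% and 50.1% of the probe sets of like signal had larger ones. Fbp1 was thus also more variable than most probe sets of its signal.

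**Figure D2:**
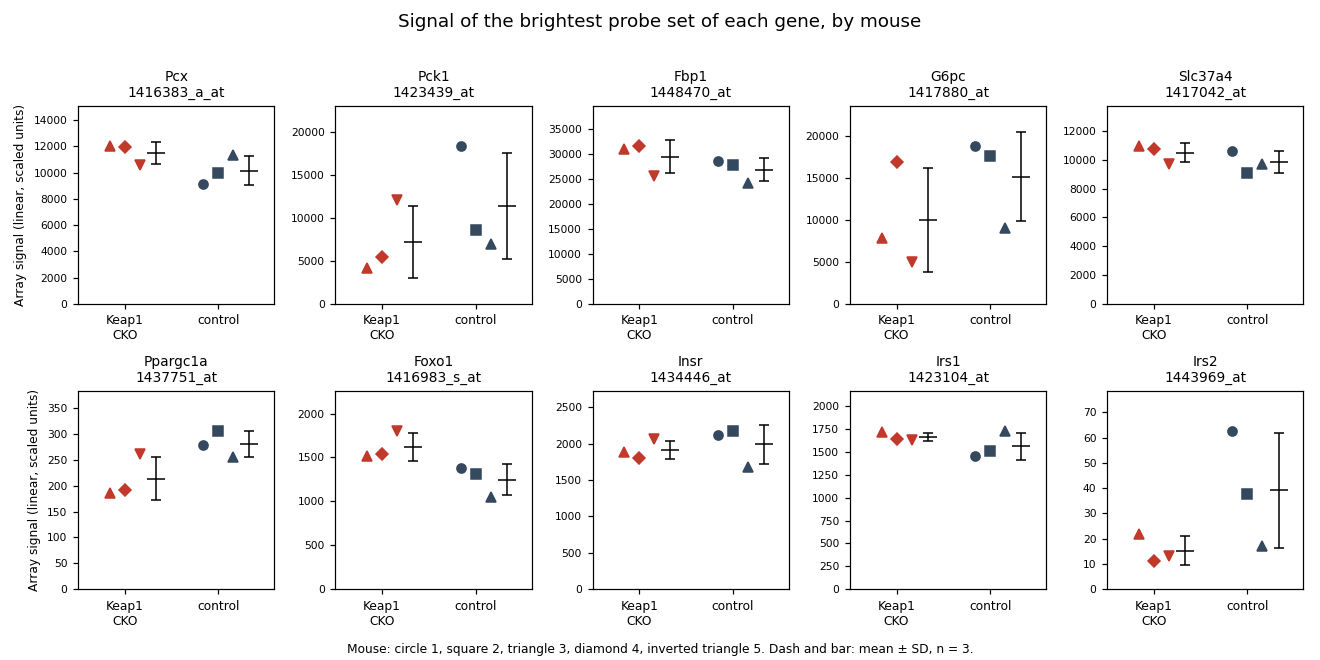
Array signal (vertical axis, linear scaled units from 0) of the brightest probe set of each of the 10 genes, 1 marker per mouse, with the Keap1 CKO group left of the controls in each panel and the mean ± SD of 3 mice beside them. The Pck1 panel runs from 4163 to 18388 and the G6pc panel from 5036 to 18865, while the 6 mice lie close together for Slc37a4, Fbp1 and Irs1.

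The remaining enzymes of the pathway differed little between the groups. Fbp1 read 31085, 31760 and 25666 in the knockouts and 28704, 27792 and 24242 in the controls, a log2 difference of 0.13 (interval -0.12 to 0.38, limma adjusted p = 0.640). The interval leaves room for a level between 0.918 and 1.30 times that of the controls. Slc37a4 read 10985, 10761 and 9737 in the knockouts and 10631, 9112 and 9692 in the controls, a difference of 0.10 (interval -0.12 to 0.32, limma adjusted p = 0.692). The groups overlapped for both genes. The direction of Fbp1 turned after quantile normalization, cyclic loess and centring on the hybridisation controls (-0.06, -0.0017 and -0.03), and that of Slc37a4 after the last of these (-0.07).

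Pcx lay slightly above the controls in all 5 of its probe sets, with overlapping groups in each, except that 1 of them (a middle control probe set) turned to -0.03 after centring on the hybridisation controls and to -0.04 without control 1. Probe set 1416383_a_at read 12064, 11939 and 10550 in the knockouts and 9150, 9950 and 11325 in the controls. The 2 highest values were those of knockouts 3 and 4, while control 3 exceeded knockout 5. The log2 difference was 0.19 (interval -0.06 to 0.43, limma adjusted p = 0.469). That difference was 0.085 after quantile normalization, 0.097 after cyclic loess and 0.022 after centring on the hybridisation controls. After median centring and with array weights it was larger, at 0.24 and 0.23. The 4 control probe sets, which sample the Pcx transcript from its 5′ to its 3′ end, differed by 0.36 (5′), 0.25 and 0.13 (middle) and 0.20 (3′). When they were added to the fit after the data had been seen, their adjusted p was 0.491 to 0.796 (limma). The ratio of the 3′ to the 5′ Pcx signal, a sign of RNA integrity, was 4.46, 4.26 and 6.28 in the knockouts and 6.22, 5.85 and 4.62 in the controls. The ratio was thus low in 3 mice from both groups, knockouts 3 and 4 and control 3, which also had the highest Pcx signals within their groups. The divisor of the ratio is itself a Pcx signal, so a low ratio with a high Pcx signal is partly built in. Means of the ratio were 5.00 ± 1.12 in the knockouts and 5.56 ± 0.84 in the controls (mean ± SD of 3 mice each; exact two-sided permutation p = 0.5), and the part of RNA integrity in the Pcx values was not tested. The same ratio was 1.58 to 1.85 in the knockouts and 1.54 to 1.90 in the controls for actin (exact two-sided permutation p = 1). For Gapdh it was 0.766 to 0.786 in the knockouts and 0.758 to 0.781 in the controls (exact two-sided permutation p = 1).

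Ppargc1a, the coactivator of the gluconeogenic programme, lay below the controls in 5 of 5 probe sets, and none passed the test. Their mean signals were low, from 96.2 to 247 against a filter at 84.2. Only 1437751_at was still tested with the filter at the 60th percentile. In the probe set with the highest signal, 1437751_at, the knockouts had 187, 193 and 262 and the controls 278, 306 and 256. Knockouts 3 and 4 were below every control, and knockout 5 was just above control 3. The means were 214 ± 41.7 in the knockouts and 280 ± 25.2 in the controls (mean ± SD of 3 mice each), 76.4% of control, with a log2 difference of -0.38 (interval -0.79 to 0.04, limma adjusted p = 0.388). Probe set 1456395_at gave 89.9, 140 and 155 in the knockouts and 226, 171 and 190 in the controls, with no overlap and a difference of -0.57 (interval -1.12 to -0.03, limma adjusted p = 0.323). Probe set 1460336_at also kept the groups apart, at 68.9, 94.9 and 97.1 in the knockouts and 152, 118 and 102 in the controls (difference -0.44, limma adjusted p = 0.50). The other two, 1434099_at and 1434100_x_at, overlapped and differed by -0.73 and -0.49 (limma adjusted p = 0.389 and 0.527).

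The mice kept much the same order across the Ppargc1a probe sets, which are not independent because they read 1 gene in the same livers. Knockout 3 was the lowest of all 6 mice in 5 of 5 probe sets and knockout 5 the highest knockout in 5 of 5. Control 3 was the lowest control in 4 of 5. The lowest adjusted p of any Ppargc1a probe set over the other settings that tested it was 0.151 (limma), for 1456395_at after centring on the hybridisation controls. That centring moved its difference from -0.57 to -0.74. Quantile normalization moved all 5 differences nearer 0, to between -0.62 and -0.30, and cyclic loess to between -0.61 and -0.31. Without knockout 3 the differences of the 5 probe sets were all nearer 0, between -0.57 and -0.21.

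**Figure D3:**
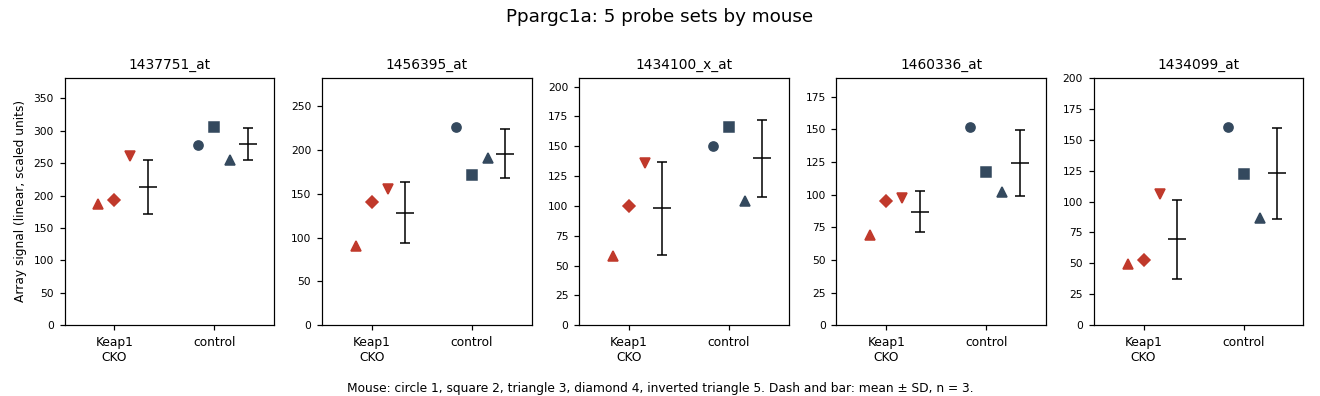
Array signal (vertical axis, linear scaled units from 0) of the 5 Ppargc1a probe sets by mouse, Keap1 CKO left and controls right, with the mean ± SD of 3 mice. Knockout 3 (upright triangle) is lowest in every panel, and knockout 5 (inverted triangle) reaches the range of the controls in the panels whose groups overlap.

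Foxo1, the insulin-restrained activator of Pck1 and G6pc, had 3 tested probe sets above the controls and 1 under the filter below them. Probe set 1416983_s_at read 1513, 1537 and 1802 in the knockouts and 1382, 1312 and 1047 in the controls, so that every knockout exceeded every control. The difference of 0.38 (interval 0.07 to 0.68) had the lowest adjusted p of the 17 probe sets, 0.245 (limma). The other two tested probe sets, 1416981_at and 1416982_at, overlapped and differed by 0.11 and 0.08 (limma adjusted p = 0.757 and 0.806). Both turned to -0.06 and -0.08 after centring on the hybridisation controls. Probe set 1456529_at was weak, with 12.2, 11.6 and 10.4 in the knockouts, all under the offset of 16, and 29.1, 24.1 and 35.0 in the controls. Its groups did not overlap, and in a fit without the filter it differed by -0.72 (limma adjusted p = 0.297). That size ran from -1.28 with an offset of 1 to -0.31 with an offset of 64, so it is poorly measured.

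The receptor and its docking proteins showed no difference past the threshold. Insr had 1 probe set with a high signal, 1434446_at, at 1878, 1808 and 2055 in the knockouts and 2116, 2172 and 1679 in the controls (difference -0.05, interval -0.33 to 0.23, limma adjusted p = 0.900). Control 3 was the lowest of the 6 and control 2 the highest. Probe set 1450225_at had 140, 158 and 142 in the knockouts and 198, 174 and 202 in the controls, without overlap, and differed by -0.35 (limma adjusted p = 0.433). The weaker 1421380_at, under the filter, had 61.0, 73.3 and 44.2 in the knockouts and 91.7, 63.8 and 93.5 in the controls. Irs1 was among the steadiest of the 10 genes, at 1713, 1641 and 1627 in the knockouts and 1450, 1508 and 1727 in the controls (difference 0.09, interval -0.15 to 0.33, limma adjusted p = 0.748). Irs2, which FOXO1 is known to activate, had only a weak probe set, 1443969_at, at 21.8, 11 and 13.1 in the knockouts and 62.6, 37.6 and 17.3 in the controls. Knockout 3 lay above control 3, and 2 of the 3 knockout values were under the offset. In a fit without the filter Irs2 differed by -0.75 (limma adjusted p = 0.488), and its size ran from -1.18 with an offset of 1 to -0.36 with an offset of 64.

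**Figure D4:**
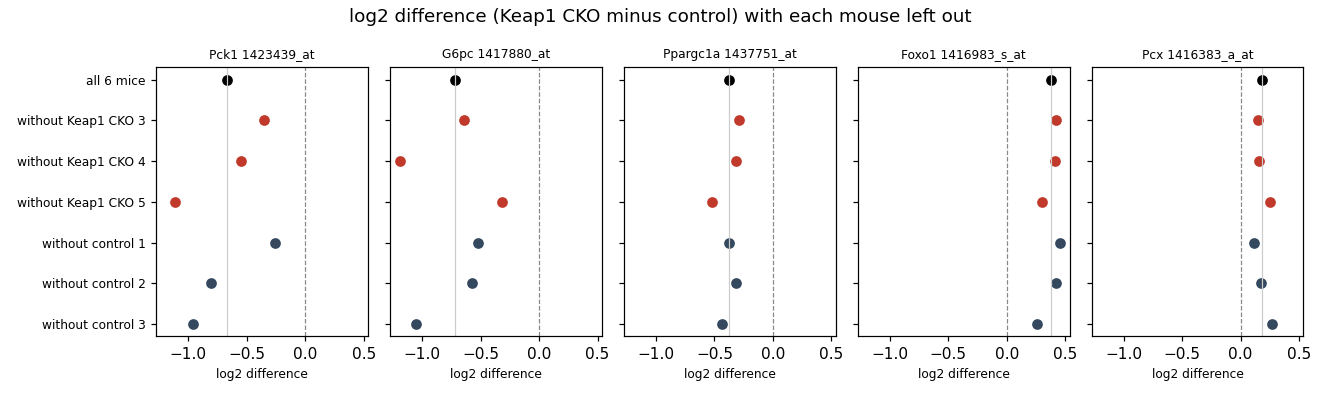
log2 difference (horizontal axis, Keap1 CKO minus control) of 1 probe set each of Pck1, G6pc, Ppargc1a, Foxo1 and Pcx with all 6 mice (top row, black) and with each mouse left out in turn (red, a knockout left out; dark blue, a control). Values stay on 1 side of 0 in each panel, and those of Pck1 run from -1.12 to -0.26.

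Related genes were read from 5 lists, each gene through its brightest probe set (highest mean over the 6 arrays). Of 13036 genes read in this way, 0.982% were called higher and 0.89% lower, and the median difference was -0.02. An unadjusted p under 0.05 was found for 15.4% of these genes, 7.49% higher and 7.87% lower. Enzymes and carriers that feed or share the gluconeogenic route had 0 of 21 tested members past the threshold (limma; 8 at an unadjusted p under 0.05, 7 higher and 1 lower). Their median difference was 0.18, with 14 above and 7 below the controls, against 47.2% of all genes above. The 2 largest differences were those of Got1, the cytosolic aspartate aminotransferase, at 0.83 (limma adjusted p = 0.150), and of Pck2, the mitochondrial PEP carboxykinase, at -0.82 (limma adjusted p = 0.456). The median of this list was 0.11 without knockout 4, 0.07 after quantile normalization and 0.02 after centring on the hybridisation controls, which moved the median of all tested probe sets to -0.20. That centring also turned the medians given below for the insulin cascade (-0.13), the glucagon and cAMP regulators (-0.16) and the clock (-0.07).

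In the insulin cascade below and beside the receptor, 1 of 36 tested members rose and 0 fell (8 at an unadjusted p under 0.05), and the median was 0.03. The gene that rose was Ceacam1, a membrane protein that promotes insulin clearance by the liver. Its brightest probe set, 1460681_at, had 4878 ± 225 in the knockouts and 3312 ± 138 in the controls (mean ± SD of 3 mice each), 1.47-fold (log2 difference 0.56, SE 0.09, limma adjusted p = 0.0217). The other 6 tested probe sets of Ceacam1 differed by -0.09 to 0.29 and none passed. The call was lost without knockout 3 or 5 (adjusted p = 0.104 and 0.0625), without control 1, 2 or 3 (0.0715, 0.0628 and 0.0687), without the variance trend (0.132) and after centring on the hybridisation controls (0.117).

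Among glucagon, cAMP and transcriptional regulators, 1 of 41 rose and 1 fell (8 at an unadjusted p under 0.05), and the median was 0.01. Kat2a encodes the acetyltransferase GCN5, which acetylates PGC-1α and lowers its activity. It rose 2.22-fold in probe set 1422971_at, to 1848 ± 152 in the knockouts against 823 ± 28.0 in the controls (mean ± SD of 3 mice each; log2 difference 1.15, SE 0.11, limma adjusted p = 0.00139). That call held without any 1 mouse and in all other settings run. The other two Kat2a probe sets differed by 0.18 and -0.01 (limma adjusted p = 0.614 and 0.989), so the rise rests on 1 of 3 probe sets. Foxa3, a forkhead factor of hepatocytes, fell to 1459 ± 342 in the knockouts against 2664 ± 349 in the controls (mean ± SD of 3 mice each), 54.8% of control (log2 difference -0.88, SE 0.17, limma adjusted p = 0.0405). Its call held without knockout 3 and was lost without knockout 4 or 5 (adjusted p = 0.109 and 0.111) and without control 1, 2 or 3 (0.0735, 0.115 and 0.121). It was also lost after quantile normalization or median centring (0.0511 and 0.0598), and without the filter, without the variance trend or with array weights (0.0690, 0.146 and 0.0659).

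Markers of feeding and fasting and of the circadian clock were read because Pck1 and G6pc are known to move with both. Of 14 feeding and fasting markers, 0 rose and 3 fell (5 at an unadjusted p under 0.05, all lower). These were the lipogenic and glycolytic genes Pnpla3, Acly and Pklr, at 32.4%, 42.3% and 49.3% of control (limma adjusted p = 0.0131, 0.0307 and 0.00598). Of the 14, 5 lay above the controls and 9 below, and the list median was -0.16, and -0.34 without control 3. The list pools genes raised by feeding with genes raised by fasting, so its median does not measure feeding state. Acly also passed in 1439459_x_at and 1425326_at (-1.26 and -1.53, limma adjusted p = 0.0217 and 0.0249). It did not in the weak 1446315_at (-0.22, limma adjusted p = 0.775). Pklr also passed in 1421258_a_at (-1.32, limma adjusted p = 0.0166) but not in 1421259_at (-0.85, limma adjusted p = 0.136). In the brightest probe sets, the Pklr call held without any 1 mouse. That of Pnpla3 was lost without knockout 3 (limma adjusted p = 0.0585), and that of Acly held only without knockout 4. Without the variance trend all 3 calls were lost (adjusted p = 0.0659, 0.134 and 0.0571). Acly had an adjusted p of 0.117 and 0.0584 without knockouts 3 and 5 and of 0.105, 0.0969 and 0.0544 without controls 1, 2 and 3, of 0.0629 without the filter, 0.0693 after median centring and 0.0525 with robust moderation. Of 12 clock markers 0 passed (limma; 2 at an unadjusted p under 0.05, both higher), with a median of 0.09 that turned to -0.03 without knockout 3 and -0.02 without control 2. Clock genes peak at different hours, so that median does not measure the hour of sampling. Ciart read 719, 525 and 755 in the knockouts and 287, 420 and 19.7 in the controls, without overlap. The largest clock differences were those of Ciart at 2.01 and of Arntl, which encodes BMAL1, at 0.65 (limma adjusted p = 0.274 and 0.580). The other tested Arntl probe set, 1457740_at, differed by -0.01 (limma adjusted p = 0.991). The part of feeding or of the hour of sampling in the Pck1 and G6pc values was not tested.

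**Figure D5:**
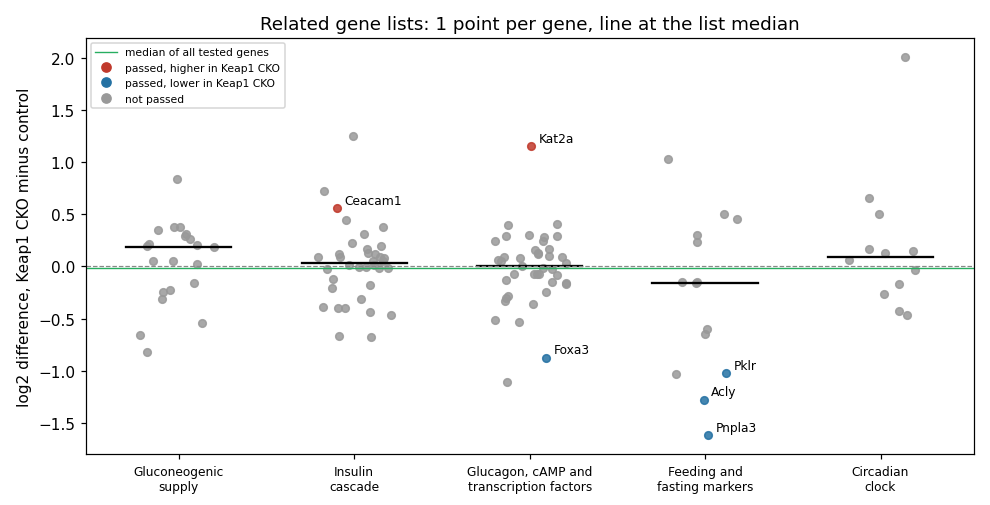
log2 difference (vertical axis, Keap1 CKO minus control) of each tested gene of the 5 related lists, 1 point per gene, with a black line at each list median and a green line at the median of all tested genes. Kat2a and Ceacam1 passed higher in the knockouts, and Foxa3, Pklr, Acly and Pnpla3 passed lower.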

How the data were processed

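The deposited values are linear array intensity, 1 per probe set and array, for 6 livers. After trimming 2% at either end, every array averaged 500, a shared scaling target that hides changes in total RNA. No source used here names the summarising software. From them log2(signal + 16) was computed; fold differences on that scale understate changes of weak probe sets. Of 45101 probe sets, 64 were controls and 34945 of the rest had 1 gene symbol. The 27022 with a mean signal at or above the 40th percentile (84.2) were fitted in R 4.3.3 by limma 3.58.1 (two-sided, eBayes with a variance trend, Benjamini-Hochberg over all tested, threshold 0.05). Members and gene lists were chosen with earlier results of these data known. All member probe sets are given; of each list, the genes that passed, or the 2 largest differences where none did. Keap1, Nfe2l2 and Nqo1 served as checks. The labels name no batch. The steps were run on simulated data with planted changes larger than any member difference of the reported fit. The power to find differences of the members' size was not simulated. Each mouse is 1 array; the number of arrays limits the precision. Alternatives were other filters, offsets, normalizations, variance models, array weights, 1 probe set per gene and leaving out each array. Centring on the hybridisation controls and adding the Pcx control probe sets were chosen after seeing the data.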

Additional observations from a re-analysis of the deposited data

How the results depend on the processing

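Under all 19 alternatives 0 member probe sets were called. The count of all called probe sets was 415 in the reported fit, 271 without the filter, 109 without the variance trend, 263 over genes, 580 with array weights, and 150 to 296 with 1 array left out. Calls were 53.0% higher ones, but 23.8% (134 higher, 428 lower) after centring on the hybridisation controls, which moved the median of all tested probe sets to -0.20 from -0.04. No paired analysis was possible because the groups share only the replicate number 3. Members whose direction turned all had differences under 0.14 in size: Fbp1 (-0.061 after quantile normalization, -0.0017 after cyclic loess, -0.034 on hybridisation controls), Insr 1434446_at (0.0014 after median centring, 0.00099 without control 1, and -0.16 to 0.020 over all left-out arrays), the MB control probe set of Pcx (-0.040 without control 1, -0.031 on hybridisation controls), and, on hybridisation controls, Slc37a4 (-0.066), Foxo1 1416981_at and 1416982_at (-0.058 and -0.083) and Irs1 (-0.073). The causes were not tested. With 1 array left out, calls numbered 0 to 1 for gluconeogenic supply, 0 to 4 for the insulin cascade, 1 to 2 for glucagon and cAMP regulators and 1 to 3 for feeding markers, and 0 for the clock. List medians then ran from 0.11 to 0.19, -0.013 to 0.088, -0.0060 to 0.030, -0.34 to -0.095 and -0.029 to 0.12 in the same order. Insulin cascade calls were 2 at the 60th percentile filter, 0 without the trend and 3 with array weights. Glucagon and cAMP calls were 1 without the filter, after quantile normalization, after median centring and without the trend, and 3 at the 60th percentile filter, with an offset of 64 and on hybridisation controls. Feeding calls were 0 without the trend and 4 on hybridisation controls, and gluconeogenic supply had 1 call with array weights.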

Other observations

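Igfbp1 encodes an insulin-like growth factor binding protein that insulin represses and FOXO1 activates in liver. It was singled out after its values were seen. It read 1240, 630 and 2251 in knockouts 3, 4 and 5, against 2770, 541 and 621 in controls 1, 2 and 3, and the groups overlapped (log2 difference 0.30, limma adjusted p = 0.868). The highest mouse of each group, knockout 5 and control 1, was also the highest of its group for Pck1 in probe set 1423439_at, at 12018 and 18388. For G6pc, control 1 was again the highest control at 18865, but knockout 5 was the lowest knockout at 5036.

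Several pathway genes lay near the threshold without passing it in the reported fit and were likewise picked after their values were seen. Pde4b, a cAMP phosphodiesterase, had 223 ± 75.6 in the knockouts and 482 ± 33 in the controls (mean ± SD of 3 mice each; limma adjusted p = 0.0578). Eif4ebp1, a translation repressor inhibited through mTOR, had 3571 ± 675 in the knockouts and 2137 ± 246 in the controls (limma adjusted p = 0.0596). Ptprf, a receptor-type tyrosine phosphatase, had 3102 ± 663 in the knockouts and 4912 ± 337 in the controls (limma adjusted p = 0.0763). Prkaa2, a catalytic subunit of AMP-activated kinase, had 3554 ± 129 in the knockouts and 2701 ± 49.2 in the controls (limma adjusted p = 0.0770). The groups did not overlap in any of these 4 genes. Of all tested probe sets, 9.1% (higher) and 11.4% (lower) did the same. Because the genes were picked for lying near the threshold, the lack of overlap adds no support. Gpt2, from the list of the gluconeogenic route, had 12558 ± 639 in the knockouts and 9659 ± 371 in the controls. Its groups did not overlap either (limma adjusted p = 0.0800), and it passed only with array weights. Pde4b passed with the 60th percentile filter, an offset of 64, array weights, centring on the hybridisation controls and without knockout 5. Eif4ebp1 passed with the 60th percentile filter, array weights and without knockout 4, and Ptprf with array weights, centring on the hybridisation controls and without knockout 4. Prkaa2 passed in none of the 19 alternatives. Trib3, a pseudokinase that binds AKT, read 848, 206 and 1083 in knockouts 3, 4 and 5, against 276, 212 and 221 in controls 1, 2 and 3, so that knockout 4 lay below all 3 controls (limma adjusted p = 0.295). With knockout 4 left out, Trib3 was among the 4 insulin cascade genes called. It was called in no other setting. Leaving out knockout 4 removes the knockout that showed no rise, so that call adds no support for one.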
